A study of Homo sapiens with 9 samples.

Results

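Nuclear tRNA genes were represented by 1003 windows in a table of 15767969 windows of cross-link sites from an eCLIP experiment on the enzyme MDH2. The windows were chosen by their identifier, which is a plain number for tRNA genes that the authors added to the gene annotation. The table held 359 numbered identifiers. 1 of them was left out because its counts equalled those of the mitochondrial tRNA gene MT-TL1 in all 9 libraries, which left 358. The table did not pair the numbers with tRNA names, positions or strands, so each tRNA is called here by its number. Of the 1003 windows, 337 were first windows of a gene (W1), 341 were numbered W2, 311 W3 and 14 W4. A window without a count in any library was not listed, and 276 identifiers had W1, W2 and W3 listed.

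Huh7 is a cell line from a human hepatocellular carcinoma. The cells were cross-linked with UV light, which joins proteins to the RNA they touch, and the lysates were treated with RNase I. The study made 3 libraries from RNA recovered with an MDH2 antibody (MDH2 IP), 3 from size-matched input (SMI), which is RNA from lysate at the same gel position without immunoprecipitation, and 3 from a control immunoprecipitation with isotype-matched IgG (IgG IP). The cells of all 9 libraries had no other treatment. The labels do not say whether replicates came from separate cultures, so the p-values measure the spread between these libraries, which may be technical. Summed over windows, the libraries held 5899767 to 9482209 counts in MDH2 IP, against 8311027 to 9788461 in SMI and 1631220 to 2942624 in IgG IP, with 14 PCR cycles for both immunoprecipitations and 9 for SMI. As a check of the cell type, the 10 hepatocyte marker genes had 15.1 to 3490 CPM (counts scaled to a common library total) in SMI. PTPRC of leukocytes was at 0.178, COL1A1 of fibroblasts at 0.187, HBB of red cells at 0 and PECAM1 of endothelium at 8.87 CPM.

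MDH2 is the mitochondrial malate dehydrogenase, which turns malate into oxaloacetate in the citric acid cycle. Nuclear tRNA genes are transcribed by RNA polymerase III from a promoter that lies inside the gene. The mature tRNA folds into an acceptor stem, a D arm, an anticodon arm and a T arm, and carries an amino acid to the ribosome. The 5′ strand of the acceptor stem and the D arm come first in the sequence, and the T arm and the 3′ strand of the acceptor stem come last. In eCLIP, reverse transcription tends to stop at the cross-linked base, and the site is taken as the base before the start of the read.

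The window numbers followed the genome coordinate and not the direction of transcription. In 1858 of 1858 genes on the plus strand with several exons the numbers rose with the exon number, and in 1745 of 1745 such genes on the minus strand they fell. Small RNAs nested in introns gave the same order. Their numbers were counted from the lowest window number of the intron. Within 5 windows, 9 of 10 on the plus strand and 14 of 16 on the minus lay at their distance from the intron's lowest coordinate. At the distance from its highest coordinate lay 0. These genes are not tRNA genes, and the same order was assumed for the numbered identifiers, whose annotation was added separately. Under that assumption W1 covers the 5′ end of a tRNA on the plus strand and the 3′ end of a tRNA on the minus strand. Counted from the lowest coordinate, W1 covers bases 1 to 50, W2 bases 21 to 70 and W3 the bases from 41 on, and only genes of more than 90 bases reach W4, which starts at base 61.

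RefSeq on GRCh38 lists 443 nuclear tRNA genes with a length of 70 to 108 bases and a median of 73, and 424 of them have a length that gives 3 windows. The letters GTTCNANNC, where N is any base, are the core of the internal promoter element named the B box and encode part of the T arm. They were found on 1 strand only in 382 of the 443 genes (86.2%). Of these, 190 read on the plus strand and 192 on the minus strand, with a median start at base 53 of the gene, read 5′ to 3′. The 4 genes printed here show what the windows cover on each strand. They belong to the Lys TTT, Arg TCT and Glu TTC types that the study names among its tRNA targets, and no numbered identifier can be assigned to them. Capitals mark the 20 bases that lie in W1 and in no other window under the assumed order. Each sequence is that of the whole gene in RefSeq on GRCh38, 5′ to 3′ in the direction of transcription, so bases are counted on the gene and not on the mature tRNA.
TRK-TTT6-1, chr6:27334990-27335062, minus strand: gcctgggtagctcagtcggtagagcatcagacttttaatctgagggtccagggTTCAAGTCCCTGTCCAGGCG
TRE-TTC1-1, chr2:130337128-130337199, minus strand: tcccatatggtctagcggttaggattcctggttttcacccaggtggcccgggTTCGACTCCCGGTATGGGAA
TRK-TTT3-1, chr1:204506527-204506599, plus strand: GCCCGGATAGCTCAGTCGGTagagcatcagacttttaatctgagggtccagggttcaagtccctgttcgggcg
TRR-TCT3-2, chr11:59551294-59551379, plus strand: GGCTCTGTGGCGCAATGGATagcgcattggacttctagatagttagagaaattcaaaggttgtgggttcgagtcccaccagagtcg
In the plus-strand genes the capitals cover the 5′ strand of the acceptor stem and part of the D arm. In the minus-strand genes they cover part of the T arm and the 3′ strand of the acceptor stem. The sequence of TRK-TTT3-1 is shared by 5 genes and that of TRE-TTC1-1 by 2. Of the 382 genes whose strand the motif gave, 195 share their sequence with another gene, and reads of such genes cannot be told apart. Of 456 tRNA windows with at least 30 counts in all, 8 had counts equal to another tRNA window in all 9 libraries, and 0 of these were equal to a window of another identifier.

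Nuclear tRNA windows held a mean of 0.545% ± 0.186 (SD, n = 3) of all window counts in MDH2 IP, against 0.198% ± 0.0403 in SMI and 0.147% ± 0.0874 in IgG IP. The single libraries held 0.348%, 0.717% and 0.571% in MDH2 IP, 0.220%, 0.223% and 0.151% in SMI, and 0.248%, 0.104% and 0.090% in IgG IP. The lowest MDH2 IP library lay above every SMI and IgG IP library, and the IgG IP library of replicate 1 lay above every SMI library. MDH2 IP exceeded SMI by 0.348 percentage points and IgG IP by 0.398 (exact two-sided permutation tests, p = 0.1 each, the smallest p that 3 libraries against 3 allow, 0.15 after adjustment over 3 comparisons).

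Most of the MDH2 IP counts came from 2 identifiers. tRNA 13032 and tRNA 20271 together held 69.7% ± 1.97 of the nuclear tRNA counts in MDH2 IP, 19.0% ± 6.73 in IgG IP and 0.479% ± 0.115 in SMI. In each MDH2 IP library 50% of the counts lay on 2 identifiers, against 31 to 37 identifiers in SMI and 8 to 11 in IgG IP. For 90% of the counts 17 to 21 identifiers were needed in MDH2 IP, against 132 to 144 in SMI and 57 to 72 in IgG IP. These numbers of identifiers did not overlap between the 3 groups. Without the 2 identifiers, nuclear tRNA windows held 0.163% ± 0.0465 of all counts in MDH2 IP, against 0.197% ± 0.0403 in SMI and 0.122% ± 0.0816 in IgG IP. The difference between MDH2 IP and SMI was then -0.0338 percentage points, with overlapping groups (exact permutation test, p = 0.5).

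**Figure D1:**
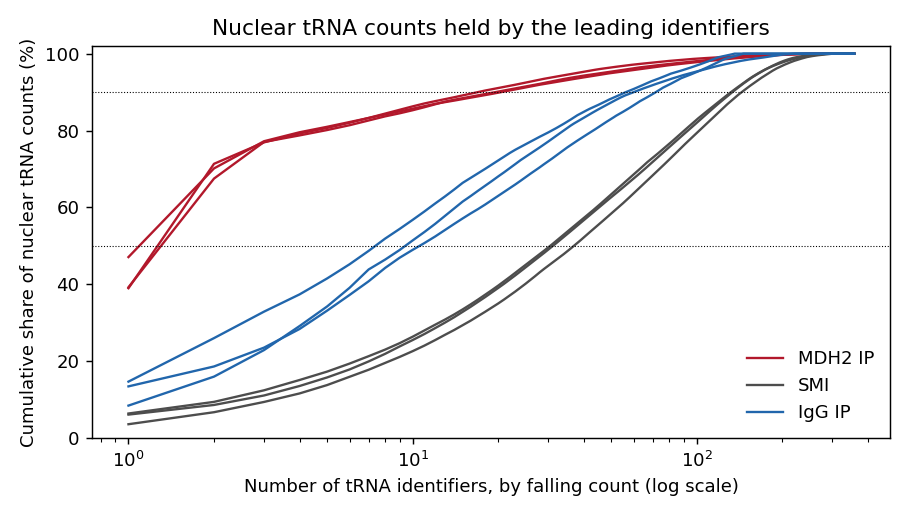
Cumulative share of the nuclear tRNA counts (%, vertical axis) against the number of identifiers in falling order of count (log scale), 1 line for each of the 9 libraries, with dotted lines at 50% and 90%. The 3 MDH2 IP lines pass 50% at the second identifier, the IgG IP lines between the 8th and the 11th and the SMI lines between the 31st and the 37th.

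The counts were spread over the window numbers unequally in the 3 groups. W1 held 60.4% ± 3.76 of the nuclear tRNA counts in MDH2 IP, against 37.0% ± 0.247 in SMI and 45.6% ± 2.33 in IgG IP (SD, n = 3). The MDH2 IP libraries lay at 61.3%, 56.3% and 63.6%, the SMI libraries at 36.8%, 37.2% and 37.0%, and the IgG IP libraries at 42.9%, 46.9% and 46.9%. The 3 groups did not overlap in W1. W2 held 28.9% ± 3.14, 34.7% ± 0.329 and 32.9% ± 1.77 in the same order of groups, and the MDH2 IP and IgG IP libraries overlapped. W3 held 10.5% ± 1.07, 26.6% ± 0.260 and 21.2% ± 1.84, without overlap. W4 held 0.118% ± 0.00887, 1.71% ± 0.149 and 0.321% ± 0.137. Between MDH2 IP and SMI the difference was 23.4 percentage points in W1, -5.74 in W2, -16.1 in W3 and -1.59 in W4. Of the 12 exact permutation tests over the 4 window numbers and the 3 pairs of groups, 11 gave p = 0.1 (0.109 adjusted), and MDH2 IP against IgG IP in W2 gave p = 0.2.

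**Figure D2:**
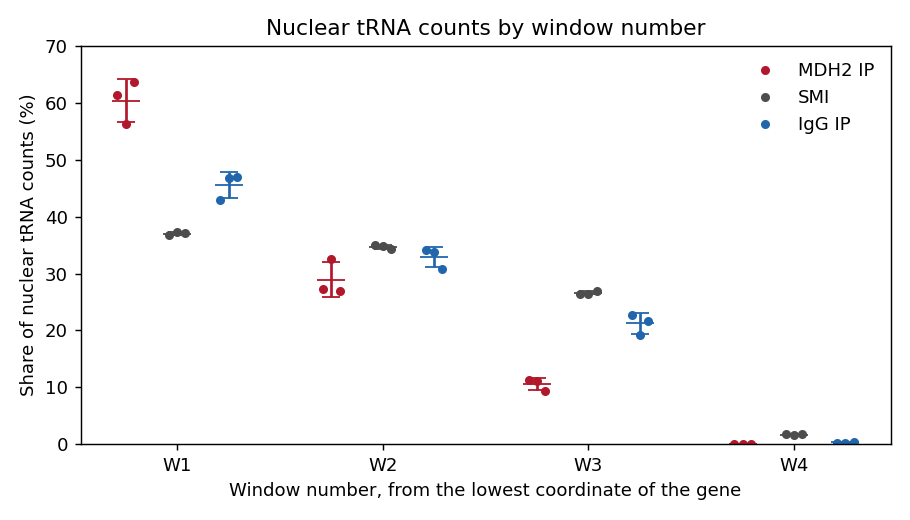
Share of the nuclear tRNA counts (%, vertical axis) in W1 to W4 for each library (points), with the mean and SD of 3 libraries per group. W1 held 56.3% to 63.6% in MDH2 IP, against 36.8% to 37.2% in SMI and 42.9% to 46.9% in IgG IP, and W3 showed the opposite order.

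The leading identifiers moved these shares. Without tRNA 13032 and tRNA 20271, W1 held 49.3% ± 3.06 in MDH2 IP, against 37.0% ± 0.251 in SMI and 39.7% ± 0.987 in IgG IP, and W3 held 19.6% ± 0.218 in MDH2 IP, 26.6% ± 0.267 in SMI and 23.9% to 25.8% in the IgG IP libraries. MDH2 IP stayed highest in W1 and lowest in W3. These shares still held the identifier ranked 3 in MDH2 IP. It had 2864, 2222 and 2044 MDH2 IP counts in W1, against 71, 81 and 32 in SMI. In W3 it had 1, 0 and 2 MDH2 IP counts. Shares without this identifier were not tested, so the remaining differences may rest on it and are not shown to be spread over many identifiers. A mean that gave each identifier the same weight was taken over the identifiers with at least 10 counts in every library compared. Over 71 such identifiers the W1 share was 2.89 percentage points higher in MDH2 IP than in SMI and the W3 share 2.57 points lower (-2.57, exact permutation test, p = 0.1 each). Over 31 identifiers the W1 share was -0.895 points from IgG IP (p = 0.3 in the exact test), the opposite direction to the pooled difference of 14.8 points. Under the assumed order W1 is the 5′ end of some tRNAs and the 3′ end of others, so a share of W1 is not a share of either end.

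The window test asked which tRNA windows held more or fewer cross-link sites in MDH2 IP than in SMI. Tested were windows in which 3 or more of the 6 libraries reached 10 counts, and the call needed both a log2 fold change of 1 or more, up or down, and an adjusted p no larger than 0.05 (edgeR's quasi-likelihood test). Of 345 tested tRNA windows, 40 were higher in MDH2 IP (11.6%, against 4.07% of all 51105 windows tested) and 242 were lower (70.1%, against 9.92%). The median log2 fold change was -2.81 over the tRNA windows and 0.0497 over all windows. The 40 higher windows lay on 25 identifiers and the 242 lower windows on 131. Of 167 identifiers with a tested window, 24 had higher windows only, 130 lower windows only, 1 had both and 12 had none called. Leaving out SMI replicate 1, 2 or 3 left 56, 59 or 65 lower windows, since 3 of only 5 libraries then had to pass and 162 to 164 windows were tested. With the minimum in 2 of the 5, a setting chosen after seeing the data, they numbered 244, 256 and 278.

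Many lower windows passed the filter through SMI alone. For 181 of the 345 windows no MDH2 IP library reached 10 counts, so that they had to differ, and 179 of them were lower. Of the 87 windows with at least 10 counts in all 6 libraries, 17 were higher and 28 lower, with a median of -0.344. The 11 windows in which no SMI library reached 10 counts were all higher. Without any filter, the mean CPM with TMM factors was lower in MDH2 IP than in SMI in 805 of the 1003 windows and higher in 182, and 16 had 0 counts in both groups. The untested windows held 1.74% to 2.24% of the tRNA counts in MDH2 IP and 11.5% to 14.0% in SMI. With total counts as library sizes the median of all windows moved from 0.0497 to 0.623 and that of the tRNA windows to -2.23, with 52 higher and 211 lower.

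At each window number more windows were called lower than higher. Of the 242 lower windows, 179 had no MDH2 IP library at 10 counts and passed the filter through SMI alone. This split was not made by window number, so the lower calls and medians that follow are partly set by the filter. Of 129 tested W1 windows, 18 were higher and 85 lower, with a median of -2.69. In W2, 14 of 119 were higher and 81 lower, with a median of -2.72. In W3, 8 of 93 were higher and 72 lower, with a median of -2.98. All 4 tested W4 windows were lower, with a median of -2.99. The one with the most counts had 17, 25 and 22 in MDH2 IP and 178, 118 and 117 in SMI. Placing the 9 windows at 0 in every library of a group at the bound that 3 counts per library give, the medians were -2.50, -2.72, -2.93 and -2.99. Of 167 identifiers, 111 had all their tested windows lower and 18 had all of them higher.

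**Figure D3:**
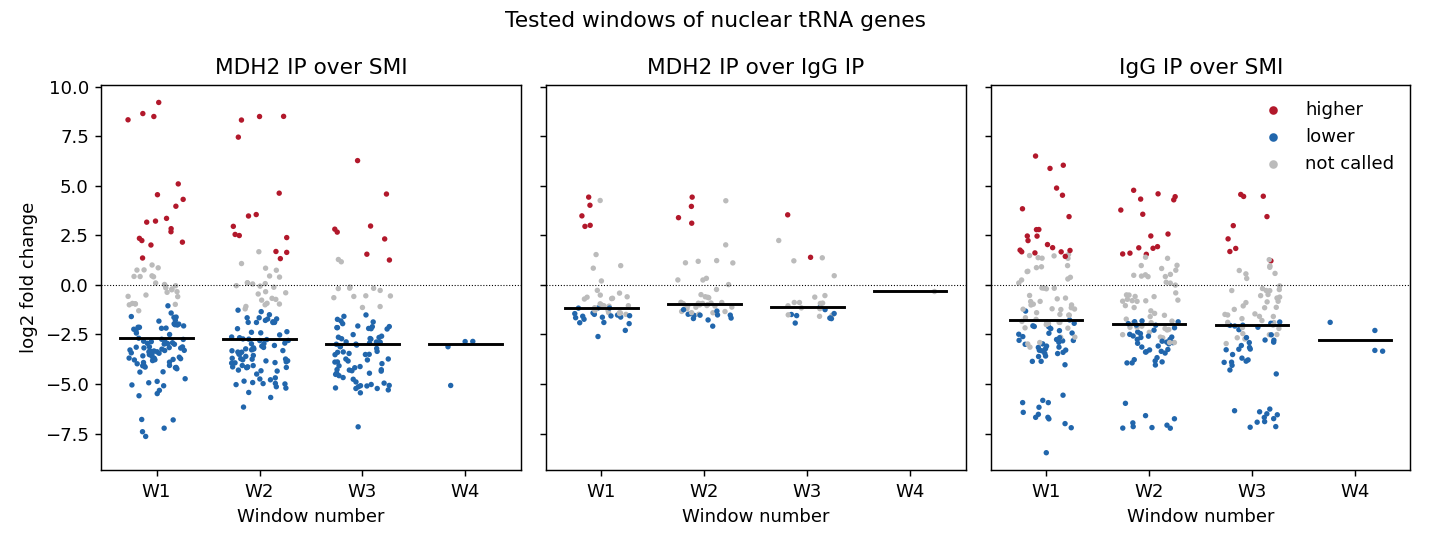
Log2 fold change (vertical axis) of each tested tRNA window (points, spread sideways at random) by window number, with the median as a bar, for MDH2 IP over SMI, MDH2 IP over IgG IP and IgG IP over SMI. Red and blue points passed the thresholds as higher and lower. Over SMI the bars lie at -2.69, -2.72, -2.98 and -2.99, and most called windows are lower.

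tRNA 13032 had the most MDH2 IP counts. In W1 it had 11208, 13295 and 13594 counts in MDH2 IP, against 14, 29 and 17 in SMI and 502, 185 and 188 in IgG IP. In W2 it had 1756, 2297 and 2271, against 2, 9 and 5 in SMI and 47, 17 and 10 in IgG IP. The groups did not overlap in either window. W3 was nearly empty, where MDH2 IP had 5, 7 and 4 counts and every SMI and IgG IP library 0, and was not tested. The log2 fold change of MDH2 IP over SMI was 9.20 ± 0.32 (SE) in W1 and 8.495 ± 0.37 in W2, with adjusted p of 1.229e-14 and 5.106e-13 in edgeR's test. Over IgG IP it was 2.95 ± 0.20 in W1 and 3.96 ± 0.29 in W2. IgG IP itself lay above SMI by 6.49 ± 0.33 in W1.

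The sites of tRNA 13032 were at the end where the window numbers start. W1 and W2 share bases 21 to 50, and W2 and W3 share bases 41 to 70. The excess of W1 over W2 is therefore a lower bound on the sites in bases 1 to 20, and the excess of W2 over W3 a lower bound on those in bases 21 to 40. By these bounds at least 84.3%, 82.7% and 83.3% of the W1 sites in MDH2 IP lay in bases 1 to 20, and at least 99.7%, 99.7% and 99.8% of the W2 sites in bases 21 to 40. In IgG IP at least 90.6%, 90.8% and 94.7% of the W1 sites lay in bases 1 to 20, and in SMI at least 85.7%, 69.0% and 70.6%, of 14 to 29 counts. The identifier ranked first in IgG IP too, and 157th in SMI.

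tRNA 20271 had its strongest window at W2. W2 had 4353, 8805 and 3632 counts in MDH2 IP, against 23, 37 and 27 in SMI and 175, 122 and 36 in IgG IP. W1 had 3377, 7349 and 2989, against 8, 10 and 13 in SMI and 154, 114 and 26 in IgG IP. W3 had 1606, 2657 and 1144, against 16, 28 and 19 in SMI and 42, 27 and 10 in IgG IP. Each MDH2 IP library lay above every control library in all 3 windows, and MDH2 IP replicate 2 was the highest. The log2 fold change over SMI was 8.64 ± 0.39 in W1, 7.45 ± 0.35 in W2 and 6.265 ± 0.33 in W3, and over IgG IP 3.003 ± 0.31, 3.11 ± 0.29 and 3.53 ± 0.30. At least 63.1%, 69.8% and 68.5% of the W2 sites in MDH2 IP lay in bases 21 to 40, and at least 22.4%, 16.5% and 17.7% in bases 51 to 70. In SMI the second bound was larger, with at least 65.2%, 73.0% and 51.9% of 23 to 37 sites in bases 51 to 70. In IgG IP at least 76.0%, 77.9% and 72.2% of the W2 sites lay in bases 21 to 40, as most did in MDH2 IP. None of the 3 windows differed from the rest of its gene between MDH2 IP and SMI by the test described further on.

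**Figure D4:**
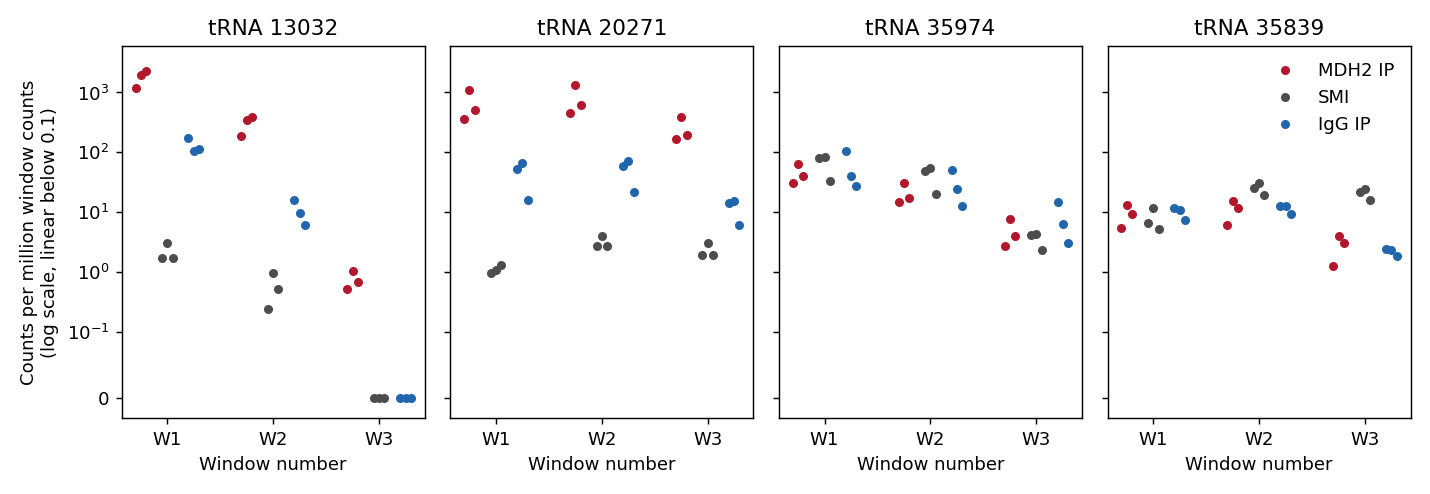
CPM of window counts (vertical axis, log scale, linear below 0.1) in W1 to W3 of the 4 named identifiers, 1 point per library. For tRNA 13032 and tRNA 20271 the MDH2 IP points lie above IgG IP and SMI in every window with counts in all groups. For tRNA 35974 the groups overlap, and for tRNA 35839 SMI separates from the other groups in W2 and W3.

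Among the other identifiers with higher windows, 1 to 3 windows per tRNA were called, with sites at either end or between the ends. The third in rank by MDH2 IP counts had 2864, 2222 and 2044 counts in W1, against 71, 81 and 32 in SMI and 62, 28 and 19 in IgG IP, and 0 to 2 MDH2 IP counts in W3. At least 79.0% to 90.2% of its W1 sites in MDH2 IP lay in bases 1 to 20, against at least 49.3% to 65.6% in SMI. In IgG IP the bound was 82.1% to 89.5%, much as in MDH2 IP. The fourth had 280, 563 and 394 counts in W1 and 276, 544 and 385 in W2 of MDH2 IP, so that at least 97.8% to 98.7% of its W2 sites lay in bases 21 to 40. Its W2 had 13, 18 and 14 counts in SMI and 84, 15 and 11 in IgG IP. There the bounds were 69.2% to 92.9% in SMI and 90.9% to 98.8% in IgG IP. Its W1 was not called over IgG IP, at 0.97 ± 0.34. The fifth had 204, 325 and 239 counts in W2 and the same in W3, with 0 to 1 in W1, which places at least 99.5% of its W2 sites in bases 51 to 70. Its W2 had 34, 21 and 35 counts in SMI and 309, 37 and 38 in IgG IP, and was lower over IgG IP, at -1.25 ± 0.33. That call needed IgG IP replicate 1, which held the 309 counts. Without this library, and with the minimum in 2 of the other 5, 0 tRNA windows were lower over IgG IP. At least 95.2% of the W2 sites of the fifth lay in bases 51 to 70 in every SMI and IgG IP library too. The ninth had 377, 328 and 251 counts in W3 and 5 to 8 in W1, with at least 83.7% to 92.0% of its W3 sites beyond base 70. Its SMI counts were 13, 8 and 14 in W3 and 20, 10 and 14 in W1. In IgG IP its W3 had 42, 8 and 14 counts, with at least 71.4% to 92.9% of the sites beyond base 70. Each of these profiles repeated in the 3 MDH2 IP libraries.

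The strongest window of each identifier with at least 50 counts in a group was examined in the same way. Of 53 such identifiers in MDH2 IP, 17 had at least 50% of the sites of that window in bases 1 to 20, 15 in bases 21 to 40, 11 in bases 51 to 70 and 2 beyond base 70, and for 8 no segment reached that bound. Of 135 identifiers in SMI, the numbers were 41, 13, 46, 2 and 33. Of 26 in IgG IP, they were 11, 6, 4, 2 and 3. The sets of identifiers differ between the groups, and these counts were not tested.

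**Figure D5:**
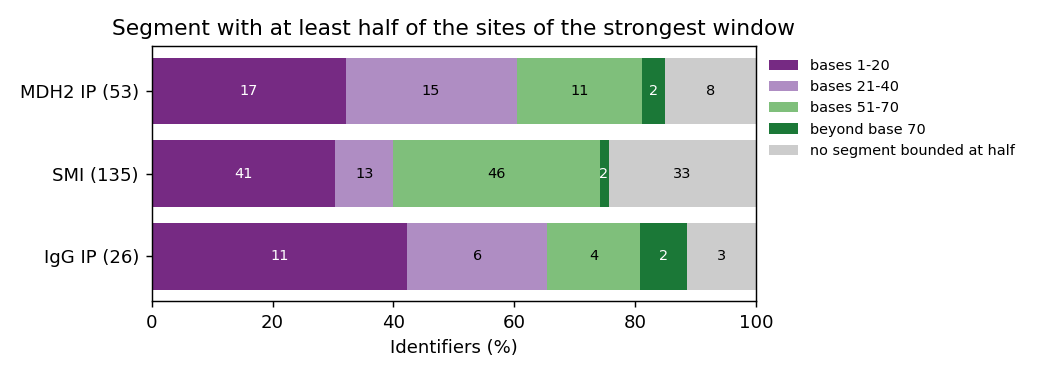
Share of identifiers (%, horizontal axis) by the segment that held at least 50% of the sites of the strongest window, for identifiers with at least 50 counts in that window, with the number of identifiers printed in each bar. Bases are counted from the lowest coordinate. Bases 21 to 40 led in 15 of 53 identifiers in MDH2 IP and 13 of 135 in SMI, and bases 51 to 70 in 11 of 53 and 46 of 135.

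Among the identifiers with lower windows, tRNA 35974 had the most SMI counts. Its W1 had 676, 782 and 323 counts in SMI, 295, 436 and 236 in MDH2 IP and 311, 70 and 45 in IgG IP. MDH2 IP replicate 2 lay above SMI replicate 3 in counts, so the groups overlapped. The log2 fold change over SMI was -1.05 ± 0.29 in W1 (adjusted p = 0.02287 in edgeR's test), -1.50 ± 0.31 in W2 and -0.11 ± 0.35 in W3. The call in W1 was lost when SMI replicate 1 or 2 or MDH2 IP replicate 1 or 3 was left out, with values from -0.949 to -0.737. Over the summed windows the change was -0.74 ± 0.38, with an adjusted p of 0.1625 in edgeR's test.

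tRNA 35839 had the second most SMI counts among them, and its windows differed from each other. W3 had 182, 231 and 157 counts in SMI, 12, 27 and 18 in MDH2 IP and 7, 4 and 3 in IgG IP. W1 had 55, 108 and 51 counts in SMI, 52, 90 and 55 in MDH2 IP and 34, 19 and 12 in IgG IP. SMI and MDH2 IP did not overlap in W3 and overlapped in W1. The log2 fold change over SMI was -0.25 ± 0.31 in W1, -1.72 ± 0.28 in W2 and -3.46 ± 0.32 in W3. Between IgG IP and SMI the same windows had 0.97 ± 0.33, -0.51 ± 0.30 and -2.66 ± 0.41, and these comparisons share the SMI libraries.

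A within-gene test asked whether a window's change differed from that of the rest of its gene, over genes with at least 2 tested windows. Between MDH2 IP and SMI, 20 of 293 tRNA windows on 14 identifiers did so at an adjusted p of at most 0.05 (6.83%, against 5.80% of all 50664 windows tested). In W1, 5 lay above the rest of their gene and 4 below, in W2 1 above and 4 below, and in W3 1 above and 5 below. For tRNA 35839, W1 lay 1.49 above the rest on the log2 scale (adjusted p = 0.01114 by edgeR) and W3 was -1.72 from it (adjusted p = 0.005968 by edgeR). The same held between IgG IP and SMI. There its W1 lay 1.54 above the rest (adjusted p = 0.002103 by edgeR) and its W3 was -2.09 from it (adjusted p = 0.001186 by edgeR). Overlapping windows share sites, which lessens the contrast between neighbours. Leaving out 1 library gave 4 to 18 such windows, with the fewest, 4, 5 and 8, without SMI replicate 1, 2 or 3 and 11 without MDH2 IP replicate 1, again with the minimum in 3 of 5 libraries. Between MDH2 IP and IgG IP, 0 of 111 tRNA windows differed from the rest of their gene by edgeR (0.621% of all windows did), with 1 at an unadjusted p of at most 0.05. Between IgG IP and SMI 12 of 276 did (3.37% of all windows), with 0, 0 and 2 left when SMI replicate 1, 2 or 3 was dropped, and 5 and 7 when replicate 1 or 2 of IgG IP was.

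Against IgG IP the tRNA windows were fewer in number and the changes smaller. Of 132 tested tRNA windows, 11 were higher in MDH2 IP (8.33%, against 0.148% of all 30424 windows tested) and 40 were lower (30.3%, against 4.77%), with a median log2 fold change of -1.06 against 0.149 over all windows. The 11 higher windows were W1 and W2 of tRNA 13032, W1 to W3 of tRNA 20271 and 6 windows of 4 further identifiers. For 28 of the 132 windows no IgG IP library reached 10 counts, so that they passed the filter through MDH2 IP alone. Among these were 3 of the 11 higher windows. Of the 25 windows with at least 10 counts in all 6 libraries, 6 were higher and 13 lower, with a median of -1.12. By window number, 5 of 52 were higher and 19 lower in W1, 4 of 52 and 12 in W2, 2 of 27 and 9 in W3, and the single tested W4 was not called. The medians were -1.16, -0.97, -1.11 and -0.31.

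The lower calls against IgG IP moved with the scale, the filter and single libraries. They were 18 with total counts as library sizes, where the median of all windows was 0.397, and 5 with DESeq2. Leaving out IgG IP replicate 1, MDH2 IP replicate 1 or MDH2 IP replicate 3 left 1 lower window each, and leaving out MDH2 IP replicate 2 left 14. Without an MDH2 IP library 3 of only 5 libraries had to pass the minimum, and 7916 to 8276 windows of the table were tested. With the minimum in 2 of the 5, the lower windows numbered 6, 54 and 31 without MDH2 IP replicate 1, 2 or 3, and 0, 43 and 49 without IgG IP replicate 1, 2 or 3. The higher windows fell to 7 without MDH2 IP replicate 1 or 2. Summed over their windows, 89 identifiers were tested, of which 10 were higher (4.64% of all identifiers were) and 0 lower (7.77% of all were) by edgeR, with 2 lower at an unadjusted p of at most 0.05 and 1 lower by DESeq2. The fit of windows and the fit of summed counts each had TMM factors of their own, and the first set MDH2 IP lower against IgG IP by 0.695 on the log2 scale. The 10 higher identifiers fell to 4 to 5 when any single MDH2 IP library was left out.

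Between IgG IP and SMI the tRNA windows also held both directions. Of 323 tested tRNA windows, 44 were higher in IgG IP (13.6%, against 6.17% of 26666 windows) and 136 lower (42.1%, against 6.34%). The median was -1.92, and -1.53 with the 32 windows at 0 in all IgG IP libraries at their bound. By window number, 20 of 119 were higher and 48 lower in W1, 15 of 110 and 46 in W2, 9 of 90 and 38 in W3, and 0 of 4 and 4 in W4. For 231 of the 323 windows no IgG IP library reached 10 counts, and 128 of the 136 lower windows were among them. Without SMI replicate 1, 2 or 3 the higher windows numbered 29, 29 and 28 and the lower ones 9, 9 and 12, and without IgG IP replicate 1 they numbered 22 and 81. Without an SMI library 88 to 91 tRNA windows passed the minimum in 3 of 5 libraries. With the minimum in 2 of the 5, the higher windows numbered 43, 45 and 44 and the lower ones 113, 135 and 154, and without IgG IP replicate 1 they numbered 24 and 88.

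The values of the called windows stood side by side as follows, with SMI and IgG IP libraries shared between the comparisons. The 40 windows higher over SMI had a median log2 fold change of 3.06 over SMI and 0.91 over IgG IP, where 21 were above 0, 11 were higher and 14 lower. Of these, 25 were tested between IgG IP and SMI, with a median of 4.29, and 22 were higher in IgG IP. The 40 windows were called against the same SMI libraries, and those with few SMI counts entered this test only through IgG IP counts. Both values are therefore partly set by the choice of windows and by the filter. In W1 the median over IgG IP of the 18 higher windows was -1.05, in W2 it was 1.15 for 14 windows and in W3 -0.02 for 8. One identifier with higher W2 and W3 shows the overlap with IgG IP. It ranked eleventh in MDH2 IP, and its W2 had 123, 203 and 101 counts in MDH2 IP, against 24, 27 and 17 in SMI and 173, 31 and 35 in IgG IP from libraries of lower depth. The 242 windows lower over SMI had a median of -3.38 over SMI. Between IgG IP and SMI 241 of them were tested and 134 were lower in IgG IP, against 6.34% of all windows tested. They had been called against the same SMI libraries, and most tRNA windows entered that test with no IgG IP library at 10 counts. The number 134 is therefore partly set by the choice of windows and by the filter too.

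Summed over windows, 199 identifiers were tested between MDH2 IP and SMI. Of these, 26 were higher and 126 lower, with a median log2 fold change of -2.295. Over all 17056 identifiers tested 16.4% were higher and 17.9% lower. The share of lower calls was larger among tRNA identifiers, but the filter bears on it. An identifier entered with 10 counts in any 3 of the 6 libraries, so one that passed through SMI alone was lower by selection. How many did so was not counted. The number of higher tRNA identifiers ranged from 14 to 32 over the settings tried. tRNA 13032 was higher by 9.49 ± 0.40 and tRNA 20271 by 7.92 ± 0.47 on the log2 scale, with adjusted p of 4.63e-06 and 3.815e-05 in edgeR's test. tRNA 35839 was lower, at -1.31 ± 0.33 (adjusted p = 0.01534 by edgeR). The higher count fell to 14 without MDH2 IP replicate 2 and to 17 without replicate 3. The lower count fell to 51, 56 and 66 without SMI replicate 1, 2 or 3, where 3 of only 5 libraries had to reach 10 counts.

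For comparison, mitochondrial tRNAs and other RNAs made by RNA polymerase III were read from the same fits. Of 24 tested windows on 12 of 22 mitochondrial tRNA genes, 17 exceeded SMI in MDH2 IP and 1 was lower, with a median of 1.28. Over IgG IP 0 of 24 were higher and 1 lower. In IgG IP over SMI 19 of 23 were higher and 1 lower, with a median of 2.46. Of all windows tested, 4.07% were higher and 9.92% lower in MDH2 IP than in SMI, and 6.17% and 6.34% in IgG IP. Of 67 tested windows on 12 of 14 other polymerase III RNAs (signal recognition particle RNA, Y RNAs, vault RNAs and the RNAs of RNase P and RNase MRP among them), 0 were higher than SMI and 57 lower (85.1%), with a median of -2.47. Over IgG IP 0 of 52 windows of this list were higher and 3 lower. In IgG IP over SMI 0 of 65 were higher and 44 lower, with a median of -1.98. RN7SL1, the RNA of the signal recognition particle, had a log2 fold change of MDH2 IP over SMI of -5.39 ± 0.21 over its summed windows. The nuclear tRNA windows held both directions, with 40 higher and 242 lower, and no test of the difference between the lists was made.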

How the data were processed

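The data were 9 eCLIP libraries of Huh7 cells. According to the methods, the authors trimmed reads with cutadapt, aligned them with STAR to GRCh38 with up to 10 alignments kept per read, removed PCR duplicates by molecular identifiers with UMI-tools, and counted sites with htseq-clip in overlapping windows (50 nt wide, starting every 20 nt), on GENCODE with tRNA genes from tRNAscan added. The deposited values are raw counts per window and library, and 0 columns of values were left unused. A site can enter up to 3 windows.

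The quasi-likelihood test of edgeR 4.0.16 (R 4.3.3, TMM factors) was run on windows and on counts summed per identifier, with only the groups compared in a fit and no block. The window p-values were one-sided in each direction, corrected for how many tested windows a window overlaps (a multiplication), then adjusted by Benjamini-Hochberg over the table. Summed counts were tested two-sided at an adjusted p of 0.05. Windows within a gene were tested with diffSpliceDGE. DESeq2 1.42.0 was an alternative. Shares were compared with exact permutation tests over libraries (scipy 1.17.1). The scripts were tested on simulated data. No replicate pair agreed within sampling noise.

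The members, lists and tests were chosen with earlier results of these data known. The named identifiers are the 2 with the most MDH2 IP counts in a higher window and the 2 with the most SMI counts among those with a lower window. Other identifiers are given by rank, chosen after their values were seen. Fold changes are of counts relative to the TMM scale of each fit.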

Additional observations from a re-analysis of the deposited data

How the results depend on the processing

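The counts of lower windows moved with the filter and with single libraries. Between MDH2 IP and SMI 242 tRNA windows were lower, with 367 without a filter on tRNA windows and 142 at a minimum of 20 counts. Leaving out 1 library gave 27 to 39 higher and 56 to 242 lower windows, 14 to 24 higher and 51 to 122 lower identifiers, and 4 to 18 windows that differed from the rest of their gene. With the minimum in 2 of the other 5 libraries, an alternative chosen after seeing the data, the lower windows numbered 244 to 304.

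Between MDH2 IP and IgG IP 40 windows were lower, with 18 by total counts as library sizes, 5 by DESeq2 and 24 at 20 counts, and DESeq2 called 1 lower identifier. Leaving out 1 library gave 7 to 15 higher and 1 to 44 lower windows and 4 to 10 higher identifiers. With the minimum in 2 libraries, 6, 54 and 31 were lower without MDH2 IP replicate 1, 2 or 3 and 0, 43 and 49 without IgG IP replicate 1, 2 or 3, and 19 were higher without IgG IP replicate 1.

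In IgG IP over SMI, DESeq2 called 84 lower windows, and 71 were higher without a filter. Leaving out 1 library gave 22 to 48 higher and 9 to 117 lower windows, 10 to 18 higher and 13 to 91 lower identifiers, and 0 to 9 windows that differed from the rest of their gene. With the minimum in 2 libraries, 24 were higher and 88 lower without IgG IP replicate 1, and 43 to 53 were higher and 108 to 154 lower when each other library was left out in turn.

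The strongest window of tRNA 35974 had a log2 fold change of 0.38 for IgG IP over SMI, with -0.42 to 0.66 when 1 library was left out, -0.16 without IgG IP replicate 1, and -0.35 with the minimum in 2 libraries as well. As a mean over identifiers, the share differences of MDH2 IP from IgG IP were -0.895 in W1, 0.743 in W2, 0.151 in W3 and 0 in W4, and that of IgG IP from SMI in W4 was 0. Without the 2 leading identifiers the W2 share of IgG IP differed from SMI by 0.191 and the tRNA share of MDH2 IP from SMI by -0.0338. Over windows with 10 counts in 3 libraries the tRNA share of IgG IP differed from SMI by 0.205. The cause of these reversals was not tested.

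Deviations from the group mean correlated at -0.0118 to 0.384 between libraries of the same replicate number. For MDH2 IP and SMI the values were 0.0431, 0.384 and 0.381 in replicates 1, 2 and 3. The methods state that the SMI was taken from the input before immunoprecipitation. Libraries of unlike replicate number were not compared, so whether the numbers pair the libraries was not settled. With the replicate number as a block, 44 windows were higher and 246 lower over SMI, 13 and 32 over IgG IP, and 37 and 132 in IgG IP over SMI, and the call of tRNA 35974 W1 over SMI was lost at -0.999. The small IgG IP libraries limit the tests against them.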
